A study of Mus musculus with 30 samples.

Results

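The enzymes and carriers that use glutathione and thioredoxin to remove peroxides and reactive compounds were examined in gonadal white adipose tissue (gWAT) of female mice of the obese strain NZO/HIBomDife. Members were taken by gene symbol from the deposited count table: the glutathione transferases (*Gst* of the classes alpha, kappa, mu, omega, pi, theta and zeta, and *Mgst*), the glutathione peroxidases (*Gpx*), the peroxiredoxins (*Prdx*), all *Txn* genes, *Sod1* and *Sod2*, and *Nfe2l2*, *Keap1*, *Nqo1*, *Gclc*, *Gclm*, *Gss*, *Gsr*, *Srxn1* and *Slc7a11*. Symbols of pseudogenes were left out. The rule gave 69 genes of 55401, of which 58 had enough counts to be tested and 11 did not. The DP group (diabetes-prone) held 15 mice and the DR group (diabetes-resistant) another 15, and each mouse gave 1 RNA library. All animals were females of the same inbred strain, and the labels name no treatment and no engineered allele in either group. Per the study's methods they were fed a diet rich in fat, were of the same young age, and were classed by a risk score before hyperglycaemia, so that DP and DR are predicted and not observed outcomes. The comparison asks how gWAT expression differs between mice at high and at low risk of diabetes.

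Glutathione is a tripeptide that is made from glutamate, cysteine and glycine by glutamate-cysteine ligase (*Gclc* and *Gclm*) and glutathione synthetase (*Gss*). Glutathione peroxidases use it to reduce peroxides, and glutathione transferases couple it to reactive aldehydes and foreign compounds. Thioredoxin serves most peroxiredoxins as the parallel source of electrons, with NADPH behind both systems. The transcription factor NRF2 (*Nfe2l2*), which KEAP1 (*Keap1*) holds in check, switches on many of these genes through antioxidant response elements. In white fat, transferases such as GSTA4 are known for clearing lipid aldehydes inside adipocytes.

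Library totals lay between 28146906 and 29974243 counts, of which the 69 genes together took 0.696% to 0.795% in DP (median 0.731%) and 0.689% to 0.807% in DR (median 0.745%). Values are in CPM, which puts the counts of every library on the same total, with the trimmed mean of M-values (TMM) setting the scale between libraries. Log2 fold changes are DP over DR with their standard error (SE), and p-values are from the quasi-likelihood test of edgeR, adjusted by Benjamini-Hochberg across all 17482 tested genes and called below 0.05. DR replicate 7 stood apart: its level of the liver gene *Alb* was 4367 CPM, against 7.08 to 36.5 CPM in the other 29 libraries, and the liver genes *Serpina1a* (242 CPM, against at most 5.30) and *Fgb* (205 CPM, against at most 1.24) were high there too. This library was the highest of the DR group for 17 of the 69 genes, 8 of them transferases. Without it, calls changed for 2 of the 58 tested genes (*Txndc12* and *Txnrd2*).

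The adipose label fitted the fat cell markers, since *Adipoq* averaged 954 ± 146 CPM in DP and 2050.4 ± 363 CPM in DR (SD, n = 15 each). Cell type markers also moved with the groups. Of 20 macrophage markers 18 were higher in DP, *Cd163* was lower and *Mertk* did not pass (median log2 fold change 0.90), with a summed level of 5796 to 8595 CPM in DP and 2233 to 5277 CPM in DR. Of 18 adipocyte markers 0 were higher and 17 were lower (median -0.53), with a summed level of 34992 to 44739 CPM in DP and 45648 to 54285 CPM in DR. Neither sum overlapped between the groups. In bulk tissue, fewer cells of a type and less RNA per cell cannot be told apart. Relations to marker scores, and fits with these scores as covariates, are given below. Since neither score overlaps between the groups, those fits can hardly separate the markers from the group.

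Of the 58 tested genes, 16 were higher in DP, 28 were lower and 14 did not pass. The 28 that fell include 19 of the 20 tested glutathione transferases. The 16 that rose include sulfiredoxin (*Srxn1*), cytosolic thioredoxin (*Txn1*), its reductase (*Txnrd1*) and 4 peroxiredoxins. They also include the modifier subunit of glutamate-cysteine ligase (*Gclm*) and the transcript of NRF2 (*Nfe2l2*), whose protein was not measured here. Over all genes 28.2% were called higher and 27.3% lower (55.5% in either direction), so a call alone is common in these libraries. The median log2 fold change was -0.09 over the 58 genes and -0.01 over all genes tested, and the median size was 0.20 and 0.18. At a fold of at least 1.5, 0 genes rose and 6 fell, against a background of 7.09% higher and 4.60% lower, and all 6 were transferases. DP and DR libraries did not overlap at all for 2 genes that were higher in DP (*Srxn1* and *Txn1*) and 3 that were lower (*Gstk1*, *Gstm2* and *Gstz1*), against 1.96% and 0.927% of all genes.

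**Figure D1:**
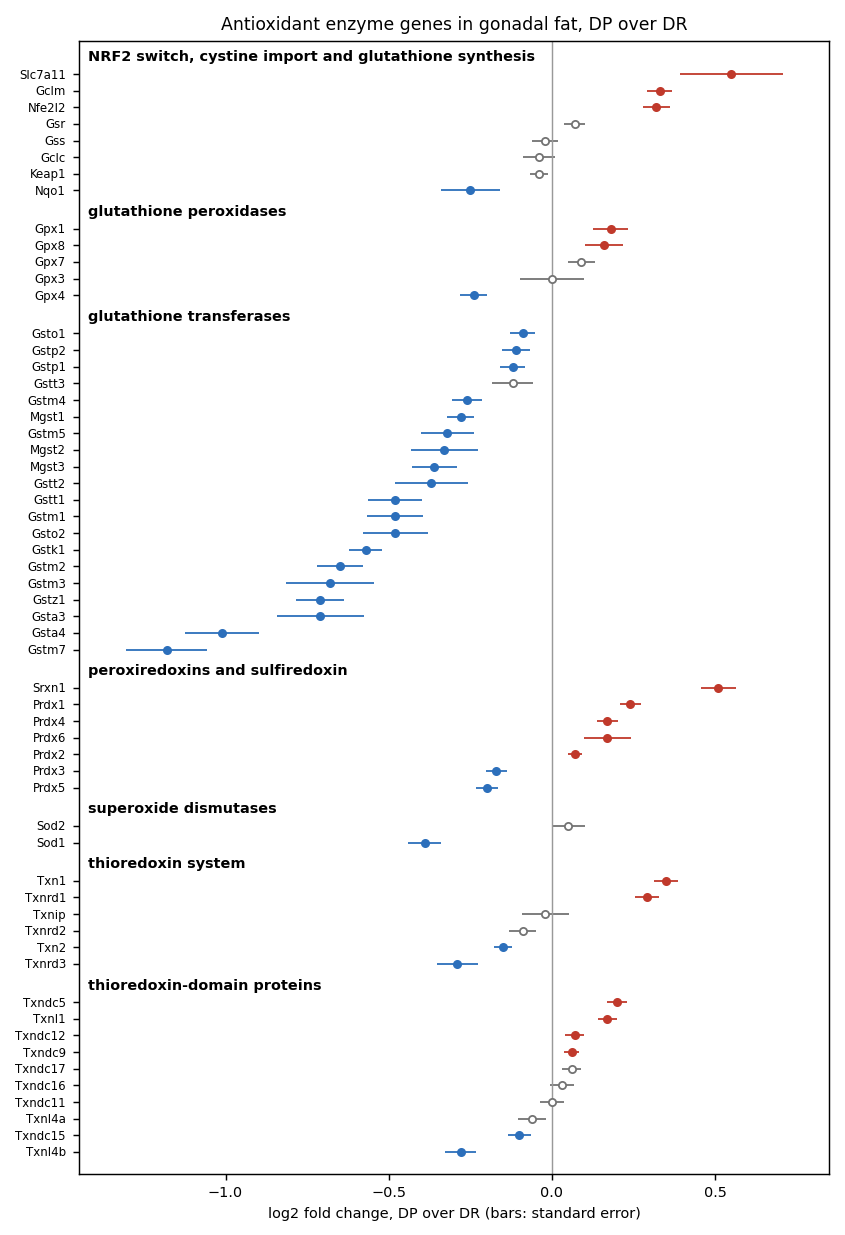
Log2 fold change of DP over DR (x axis) for the 58 tested genes, grouped by role, with bars of 1 SE. Filled red points were higher in DP, filled blue points were lower, and open points did not pass the threshold. All 20 transferases lie left of 0, from -0.09 (*Gsto1*) to -1.18 (*Gstm7*), while the peroxiredoxins and the thioredoxin genes lie on both sides.

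The switch and the synthesis of glutathione came first. *Nfe2l2* (chromosome 2, 75675513 to 75704641 of GRCm38) ran from 128 to 159 CPM in DP (median 143) and from 95.8 to 135 CPM in DR (median 115). All 15 DP libraries lay above the DR median, with a small overlap of the ranges. The transcript was 1.25-fold higher in DP (log2 fold change 0.32 ± 0.0425 SE, adjusted p = 2.11e-07). Its inhibitor *Keap1* had 58.9 ± 2.74 CPM in DP and 60.4 ± 3.27 CPM in DR and did not pass (adjusted p = 0.287), and 10.9% of its exon length overlaps an antisense gene.

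Of the ligase that makes gamma-glutamylcysteine, the subunits differed in what the test gave. *Gclm*, the modifier subunit (chromosome 3, 122245557 to 122270732), ran from 43.3 to 54.1 CPM in DP (median 49.7) and from 35.2 to 44.9 CPM in DR (median 39.2). DP was higher by 1.26-fold (log2 fold change 0.33 ± 0.0376 SE, adjusted p = 1.23e-08), and all DP libraries were above the DR median. Its exons share 4.71% of their length with *Gm17494* on the other strand and 3.88% with a pseudogene on its own strand. *Gclc*, the catalytic subunit, ran from 26.8 to 33.1 CPM in DP (median 28.9) and from 25.9 to 41.9 CPM in DR (median 29.1) (log2 fold change -0.04 ± 0.0497 SE, adjusted p = 0.486). Its highest value, 41.9 CPM, was that of DR replicate 7, and without that library the log2 fold change was -0.01. The difference between the subunits was not tested.

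The remaining genes of this role were close between the groups or scarce. Glutathione synthetase *Gss* had 25.4 ± 1.74 CPM in DP and 25.8 ± 2.05 CPM in DR (adjusted p = 0.652), and its exons overlap the acetyl-CoA synthetase gene *Acss2*. Glutathione reductase *Gsr*, which regenerates reduced glutathione with NADPH, had 34.1 ± 1.91 CPM in DP and 32.5 ± 2.04 CPM in DR (adjusted p = 0.0599), with 13 of 15 DP libraries above the DR median. *Slc7a11*, the cystine importer, was scarce: 0.502 to 1.54 CPM in DP (median 0.934) and 0.318 to 1.09 CPM in DR (median 0.646), or 24.3 counts per library on average. It was called higher by 1.46-fold (log2 fold change 0.55 ± 0.158 SE, adjusted p = 0.00400), although the ranges overlap over most of their width. *Nqo1*, a quinone reductase and a textbook NRF2 target, went the other way, with 2.89 to 4.02 CPM in DP (median 3.24) and 2.14 to 5.14 CPM in DR (median 3.86). It was 1.19-fold lower (-0.25 ± 0.0904 SE on the log2 scale, adjusted p = 0.0195), and the DR libraries enclose the whole DP range.

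**Figure D2:**
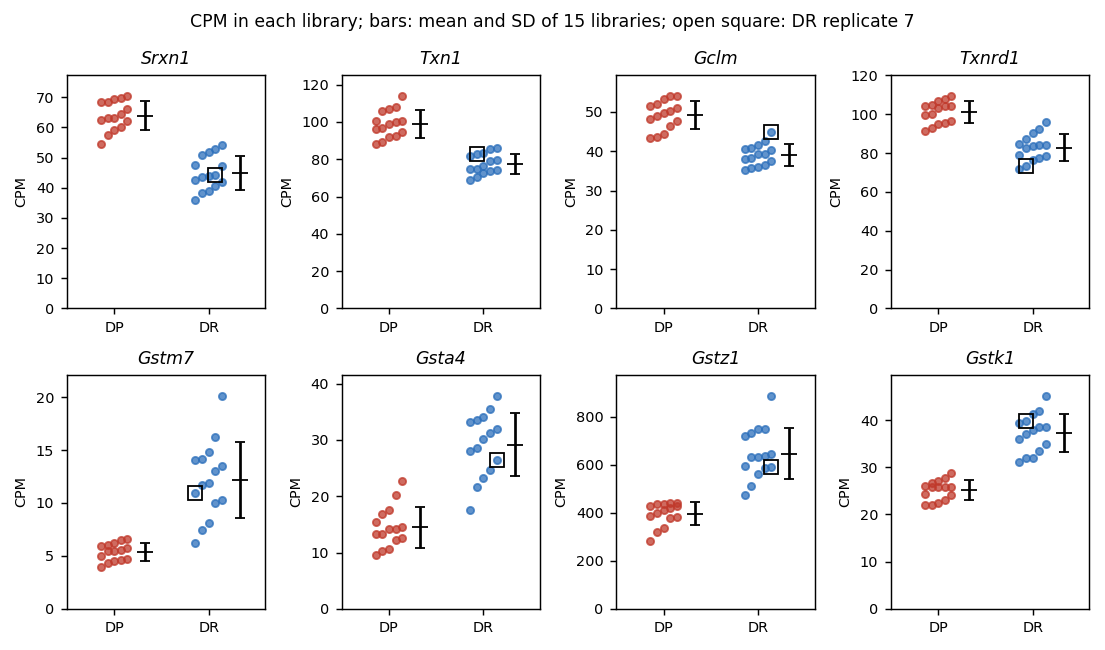
CPM in each library (y axis, from 0) for 4 genes that were higher in DP (top) and 4 that were lower (bottom), with DP left of DR, the mean and SD of 15 libraries beside the points, and an open square around DR replicate 7. *Srxn1* and *Txn1* part the groups fully, as do *Gstz1* and *Gstk1*, while *Gstm7* spreads from 6.21 to 20.1 CPM within DR.

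Antioxidant response elements were looked for in the RefSeq promoters (250 bases before to 50 after each gene start, GRCm38.p6) as the core TGACNNNGC on both strands. The letters occur in 12.4% of 32851 promoters and in 14% of the genes. Of the 69 genes, 61 had a promoter in the table and 13 of these (21.3%) held the core: 6 of 14 that rose, 5 of 26 that fell, 1 of 11 that did not pass and 1 of 10 that were filtered. *Gclc*, *Gsr*, *Gsta4*, *Gstt2*, *Prdx6*, *Prdx6b*, *Txnl1* and *Txnl4a* had no promoter matched by symbol and were not searched. A match is a description of the sequence and not a bound site, and genes without it may hold elements elsewhere. Windows of 30 bases are shown for the matches before the RefSeq start. They set the cores of genes that rose beside those of genes that fell. For some genes that start differs from the edge of the gene span in GENCODE, the source of the gene positions given here. The windows of *Gstm7*, *Mgst1*, *Txndc5* and *Txnrd1* lie inside the GENCODE span, and that of *Gstm5* crosses its edge. Each window is read 5′ to 3′ on the strand that spells the core, which stands in capitals. The genes that rose were these.
Gclm (chr3:122245412-122245441, minus strand): tcgtgagagtTGACGGTGCgcccgggagcg
Nfe2l2 (chr2:75704884-75704913, minus strand): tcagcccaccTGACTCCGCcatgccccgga
Prdx1 (chr4:116685455-116685484, minus strand): ctacgggggaTGACTCAGCgctttccctgg
Txndc5 (chr13:38528033-38528062, minus strand): gcctcgccgcTGACGTGGCgctagccgccg
Txnrd1 (chr10:82859103-82859132, minus strand): cgtgtcagaaTGACAAAGCaaaaatccagt
The core of *Prdx1* contains the AP-1 site TGACTCA, which is found in 5.20% of all promoters, and the *Prdx1* promoter holds a further copy of that site. In *Srxn1* the core lies 29 bases after the start and is not shown, and its promoter holds 2 AP-1 sites before the start. The genes that fell held the following cores.
Gsta3 (chr1:21240454-21240483, plus strand): aactcaggcaTGACATTGCatttttcttct
Gstm5 (chr3:107895802-107895831, plus strand): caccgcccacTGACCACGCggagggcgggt
Gstm7 (chr3:107931724-107931753, minus strand): tctgaagaccTGACAAAGCgaagccaatcc
Mgst1 (chr6:138140460-138140489, minus strand): ccccgcctccTGACCGTGCcaagccccgcc
Sod1 (chr16:90220695-90220724, minus strand): ggcctgagtcTGACCACGCccaccttggca
*Gstm5* and *Sod1*, which both fell, have the core TGACCACGC in common, and the core TGACAAAGC of *Txnrd1*, which rose, is also that of *Gstm7*, which fell. AP-1 sites also occur in *Gstm5*, *Gstp1*, *Gstp2* and *Mgst2*, which fell. For the wider context the 250 bases before the RefSeq start are given for *Gclm* and *Nfe2l2*, on the strand of the gene, with the core in capitals (on the strand shown the *Gclm* core is in reverse complement). They are the ligase subunit that rose and the factor that reads the element.
Gclm (chr3:122245307-122245556, plus strand): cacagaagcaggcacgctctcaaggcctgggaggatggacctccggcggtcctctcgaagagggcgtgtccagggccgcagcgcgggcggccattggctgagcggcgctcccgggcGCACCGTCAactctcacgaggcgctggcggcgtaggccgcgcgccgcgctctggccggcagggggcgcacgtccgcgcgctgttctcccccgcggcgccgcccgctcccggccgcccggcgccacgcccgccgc
Nfe2l2 (chr2:75704664-75704913, minus strand): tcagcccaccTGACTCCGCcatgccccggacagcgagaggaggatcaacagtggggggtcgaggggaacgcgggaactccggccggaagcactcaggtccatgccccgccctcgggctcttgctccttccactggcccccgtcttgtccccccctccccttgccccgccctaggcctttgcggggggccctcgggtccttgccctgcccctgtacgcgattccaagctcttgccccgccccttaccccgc

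Genes that NRF2 is known to switch on outside the 69 also gave both directions. Of 18 tested targets 6 were higher in DP, 4 were lower and 8 did not pass (median log2 fold change 0.04). These counts and those of the partners below stand beside 28.2% higher and 27.3% lower over all genes. The lower targets were *Osgin1* (1.27-fold), *Cbr1* (1.12-fold), *Taldo1* (1.11-fold) and *Abcc1* (1.08-fold). Ferritin light chain *Ftl1*, which stores iron, averaged 3809 ± 480.3 CPM in DP and 2316 ± 357 CPM in DR (1.64-fold higher, adjusted p = 2.21e-09). Heme oxygenase *Hmox1* averaged 129 ± 11.2 CPM in DP and 82.9 ± 13.3 CPM in DR (1.55-fold higher, adjusted p = 2.96e-09), and the aldo-keto reductase *Akr1b8* 70.7 ± 6.83 and 49.3 ± 5.42 CPM (1.43-fold higher, adjusted p = 2.78e-09). The targets of the pentose phosphate pathway *G6pdx* and *Pgd* had adjusted p-values of 0.792 and 0.420. Of 10 partners and regulators of NRF2, 5 were higher, 3 lower and 2 not passed. *Bach1*, a repressor that competes for the same elements, had 44.4 to 52.3 CPM in DP and 24.9 to 44.3 CPM in DR, without overlap (1.40-fold higher, adjusted p = 1.42e-08). The small Maf partner *Mafg* was 1.15-fold higher (adjusted p = 2.31e-07) and the related factor *Nfe2l1* 1.12-fold lower (adjusted p = 2.29e-07).

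The glutathione transferases were the role group with the most uniform direction. Of 25 genes 20 were tested: 0 were higher in DP, 19 were lower and *Gstt3* did not pass, with a median log2 fold change of -0.42 beside -0.01 over all genes. The largest fall was that of *Gstm7*, a mu-class enzyme (chromosome 3, 107926334 to 107931817). It ran from 3.95 to 6.60 CPM in DP (median 5.44) and from 6.21 to 20.1 CPM in DR (median 11.9). Only the edges of the ranges touch, and DR varied more, with a coefficient of variation of 29.6% against 15.3% in DP. The fold was 2.27 (log2 fold change -1.18 ± 0.124 SE, adjusted p = 4.10e-09).

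*Gsta4*, the transferase for 4-hydroxyalkenals from lipid peroxidation (chromosome 9, 78182774 to 78209349), ran from 9.63 to 22.7 CPM in DP (median 14.1) and from 17.6 to 37.8 CPM in DR (median 30.2). Every DP library lay below the DR median. It was 2.01-fold lower (-1.01 ± 0.113 SE on the log2 scale, adjusted p = 1.10e-08). *Gstz1*, the maleylacetoacetate isomerase of tyrosine breakdown (chromosome 12, 87147165 to 87164723), ran from 282 to 442 CPM in DP (median 414) and from 473 to 887 CPM in DR (median 633). The ranges do not meet, the fold was 1.64 (log2 fold change -0.71 ± 0.0744 SE, adjusted p = 4.06e-09), and 9.14% of its exon length overlaps *Pomt2* on the other strand. *Gstk1*, the kappa-class enzyme of mitochondria and peroxisomes (chromosome 6, 42245935 to 42250447), had the smallest p of the 58 genes. It ran from 22 to 28.7 CPM in DP (median 25.8) and from 31.2 to 45.1 CPM in DR (median 38.0), again without overlap. The fold was 1.48 (log2 fold change -0.57 ± 0.0502 SE, adjusted p = 4.97e-10).

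*Gsta3*, an alpha-class enzyme (chromosome 1, 21240589 to 21265661), had its highest value in DR replicate 7. It ran from 8.91 to 14.9 CPM in DP (median 10.8) and from 10.6 to 38.5 CPM in DR (median 16.2). The other 14 DR libraries reached at most 25 CPM. With all libraries *Gsta3* was 1.63-fold lower in DP (-0.71 ± 0.133 SE on the log2 scale, adjusted p = 3.69e-05), and without DR replicate 7 it was 1.52-fold lower (adjusted p = 1.47e-05). *Gstm3* was scarce, at 0.798 ± 0.175 CPM in DP and 1.29 ± 0.341 CPM in DR, and was 1.61-fold lower (adjusted p = 7.59e-05) or 1.57-fold lower without that library.

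The other mu-class genes lie beside *Gstm7* on chromosome 3, and the 5 of them that were tested all fell. *Gstm2* (107981702 to 107986453) had 28.3 to 36.2 CPM in DP (median 31.9) and 36.3 to 64.4 CPM in DR (median 53.4). The gap between the groups is narrow, but no library crosses it. It was 1.56-fold lower (-0.65 ± 0.0702 SE on the log2 scale, adjusted p = 6.99e-09). *Gstm1*, the most abundant of the class, averaged 99.3 ± 14.4 CPM in DP and 138 ± 25.1 CPM in DR (1.39-fold lower, adjusted p = 2.01e-05). *Gstm4* was 1.2-fold lower (adjusted p = 1.71e-05) and *Gstm5* 1.25-fold lower (adjusted p = 0.00107). These genes resemble each other: 18.9% of the stretches of 50 bases in the transcripts of *Gstm1* and 28.8% of those of *Gstm3* occur in transcripts of another gene, and 54.3% for *Gstp2*, mostly shared with *Gstp1*. How the counting assigned such reads is not given in the sources used here, so the values of single copies are uncertain.

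The membrane-bound transferases also fell. *Mgst1*, an enzyme of the endoplasmic reticulum and outer mitochondrial membrane (chromosome 6, 138140316 to 138156755), ran from 466 to 629.8 CPM in DP (median 514) and from 547 to 732 CPM in DR (median 624). All but 1 of the DP libraries lay below the DR median. It was 1.22-fold lower (-0.28 ± 0.0413 SE on the log2 scale, adjusted p = 8.42e-07). *Mgst3* averaged 110.2 ± 19.3 CPM in DP and 141 ± 12.7 CPM in DR (1.28-fold lower, adjusted p = 6.15e-05). *Mgst2*, at 5.61 ± 1.08 CPM in DP and 7.06 ± 1.49 CPM in DR, was 1.26-fold lower (adjusted p = 0.00702).

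The theta-class genes *Gstt1* (1.39-fold, adjusted p = 9.90e-06) and *Gstt2* (1.29-fold, adjusted p = 0.00549) were lower in DP, and *Gstt3*, at 10.1 ± 0.876 CPM in DP and 10.9 ± 1.59 CPM in DR, missed the threshold (adjusted p = 0.0986). The omega-class *Gsto2* was 1.39-fold lower (adjusted p = 0.000149). The smallest shifts were those of *Gsto1*, *Gstp2* and *Gstp1*, lower by 1.07-fold, 1.08-fold and 1.09-fold (adjusted p = 0.0411, 0.0347 and 0.00754). *Gsto1* and *Gstp2* lost their calls when library totals alone scaled the counts, as they did without a filter or without the least correlated library of each group. The 5 transferases that were not tested were *Gsta1*, *Gsta2*, *Gstm6*, *Gstp3* and *Gstt4*. Of these *Gstm6* reached 2.63 CPM in DR replicate 7, against at most 0.881 CPM in the other DR libraries.

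**Figure D3:**
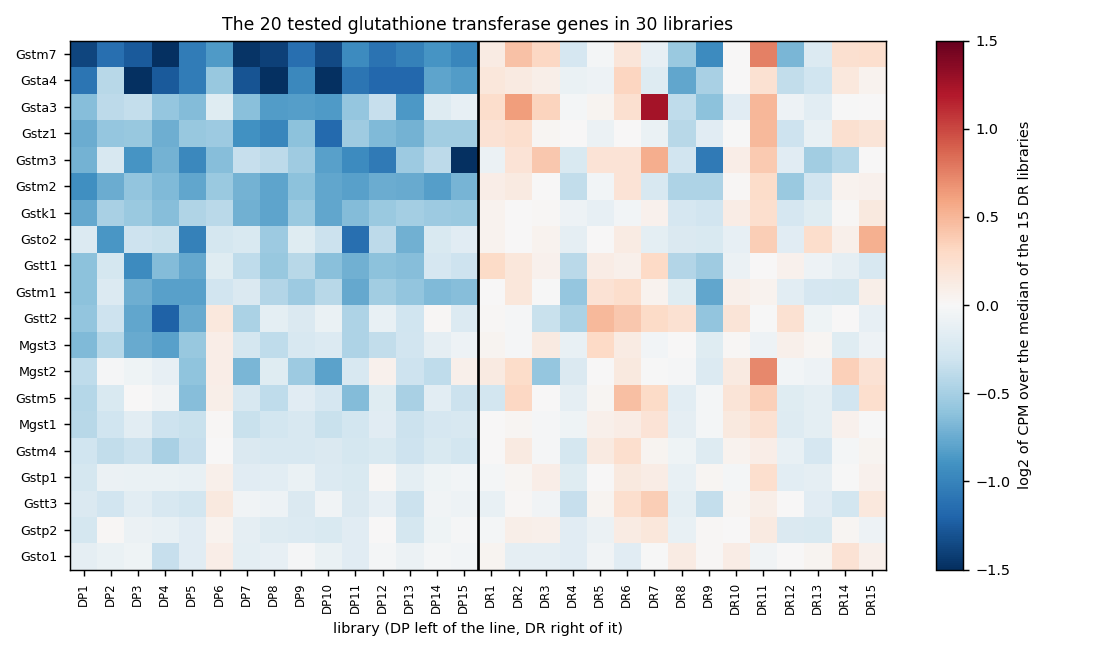
The 20 tested transferases (rows, the largest fall on top) in 30 libraries (columns, DP left of the line and DR right of it), coloured by the log2 of CPM over the median of the 15 DR libraries, with the scale clipped at 1.5 in either direction. The upper rows are blue in nearly all DP libraries, the lowest rows are near white throughout, and the dark red cell is *Gsta3* in DR replicate 7.

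Transferases varied between libraries of the same group as well. Within DP the coefficient of variation ran from 6.08% (*Gstp1*) to 25.1% (*Gsta4*) over the tested transferases, and within DR from 7.97% (*Gsto1*) to 36.3% (*Gsta3*, which includes DR replicate 7). DP replicate 6 lay above the DR median for 10 of the 20 genes, and no other DP library did so for more than 3. DR replicate 9 was the lowest DR library for 10 of the 20, among them *Gstm7*, *Gstm3* and *Gstm1*.

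Glutathione peroxidases gave both directions. *Gpx1*, the cytosolic enzyme (chromosome 9, 108338903 to 108340343), ran from 446 to 669 CPM in DP (median 553) and from 431 to 595 CPM in DR (median 483). The ranges overlap broadly, with 13 of 15 DP libraries above the DR median, and the fold was 1.13 higher (log2 fold change 0.18 ± 0.0543 SE, adjusted p = 0.00606). *Gpx4*, which reduces lipid hydroperoxides in membranes and restrains ferroptosis (chromosome 10, 80047166 to 80056439), ran from 438 to 527 CPM in DP (median 474) and from 474 to 700.3 CPM in DR (median 567). All 15 DP libraries lay below the DR median, and it was 1.18-fold lower (-0.24 ± 0.0423 SE on the log2 scale, adjusted p = 1.14e-05). Of its stretches of 50 bases 34.7% also occur in a pseudogene, *Gpx4-ps2*, or another copy.

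*Gpx3*, the secreted plasma enzyme that fat tissue makes, averaged 271 ± 34.9 CPM in DP and 271 ± 63.9 CPM in DR (log2 fold change 0.00 ± 0.0973 SE, adjusted p = 0.998). Its spread was wider in DR (165 to 358 CPM) than in DP (229.7 to 369 CPM), and the difference in spread was not tested. *Gpx8*, an enzyme of the endoplasmic reticulum, was 1.12-fold higher (adjusted p = 0.0200), and its call was lost with voom or upper quartile factors. *Gpx7* had 23.5 ± 1.63 CPM in DP and 22 ± 1.86 CPM in DR (adjusted p = 0.0520). *Gpx2*, *Gpx5* and *Gpx6* were filtered, with 0 counts of *Gpx5* and *Gpx6* in any library.

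The peroxiredoxins, most of which reduce peroxides with electrons from thioredoxin, gave both directions. *Srxn1*, which repairs overoxidised peroxiredoxins (chromosome 2, 152105516 to 152111376), had the largest rise after the scarce *Slc7a11*. It ran from 54.4 to 70.5 CPM in DP (median 63.3) and from 35.8 to 54.2 CPM in DR (median 44.0). The lowest DP library lies just above the highest DR library. The fold was 1.42 (log2 fold change 0.51 ± 0.0528 SE, adjusted p = 3.66e-09).

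*Prdx1*, cytosolic and a known NRF2 target (chromosome 4, 116685544 to 116700822), ran from 382 to 467 CPM in DP (median 413) and from 322 to 401 CPM in DR (median 351). The overlap is small, and its highest DR value was that of DR replicate 7. It was 1.18-fold higher (log2 fold change 0.24 ± 0.0330 SE, adjusted p = 2.86e-07). *Prdx4*, in the endoplasmic reticulum, averaged 41.5 ± 2.67 CPM in DP and 36.8 ± 2.03 CPM in DR (1.13-fold higher, adjusted p = 3.63e-05). *Prdx2*, cytosolic, was 1.05-fold higher (130.4 ± 5.97 and 124 ± 3.57 CPM in DP and DR, adjusted p = 0.00720), and 5.67% of its exon length overlaps *Junb* and 5.80% *Rnaseh2a*. *Prdx6*, which also has phospholipase activity, averaged 649 ± 96.6 CPM in DP and 576 ± 81.1 CPM in DR (1.13-fold higher, adjusted p = 0.0440). Its call was lost with DESeq2, with other scaling factors and without the filter, but not when library totals alone scaled the counts.

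Both mitochondrial peroxiredoxins were lower. *Prdx3* (chromosome 19, 60864051 to 60874556) ran from 78.9 to 99.3 CPM in DP (median 87.9) and from 94.0 to 109 CPM in DR (median 99.9). It was 1.12-fold lower (-0.17 ± 0.0318 SE on the log2 scale, adjusted p = 4.34e-05), with all 15 DP libraries below the DR median. *Prdx5*, which is found in mitochondria and peroxisomes, averaged 180.3 ± 10.3 CPM in DP and 208 ± 14 CPM in DR (1.15-fold lower, adjusted p = 6.33e-06), and 19.1% of its exon length overlaps *Trmt112* on the other strand. *Prdx6b* was filtered, with a highest count of 7. Genes of the mitochondrial genome took 5.01% to 7.22% of the counts in DP (median 6.01%) and 6.09% to 8.29% in DR (median 7.24%), and the part of this share in the falls of *Prdx3*, *Prdx5* and *Txn2* was not tested. Whether the compartments differ was not tested either.

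The thioredoxin system gave both directions too. *Txn1*, cytosolic thioredoxin (chromosome 4, 57943373 to 57956411), ran from 88.4 to 114 CPM in DP (median 99.1) and from 69.1 to 86.1 CPM in DR (median 76.4). The groups do not overlap. The fold was 1.27 (log2 fold change 0.35 ± 0.0373 SE, adjusted p = 5.13e-09). Its selenium-dependent reductase *Txnrd1* (chromosome 10, 82833951 to 82897712) ran from 91.3 to 109.5 CPM in DP (median 103) and from 71.8 to 95.9 CPM in DR (median 83.7). All DP libraries lay above the DR median, and the fold was 1.22 (log2 fold change 0.29 ± 0.0370 SE, adjusted p = 1.10e-07).

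Mitochondrial thioredoxin *Txn2* (chromosome 15, 77915047 to 77929006) was 1.11-fold lower, at 83.2 to 99.2 CPM in DP (median 90.9) and 93.7 to 114 CPM in DR (median 99.6). Every DP library lay below the DR median (log2 fold change -0.15 ± 0.0272 SE, adjusted p = 1.40e-05). Its reductase *Txnrd2* had 23.3 ± 2.03 CPM in DP and 24.8 ± 1.5 CPM in DR and did not pass (adjusted p = 0.0595), but it was called lower without DR replicate 7 (adjusted p = 0.0333). *Txnrd3*, the reductase best known from testis, was 1.22-fold lower (12.4 ± 1.63 CPM in DP and 15.1 ± 1.65 CPM in DR, adjusted p = 0.000225). *Txnip*, the thioredoxin inhibitor that responds to glucose (chromosome 3, 96557957 to 96561883), had the highest CPM of the members. It ran from 993 to 1562 CPM in DP (median 1109) and from 885 to 1478 CPM in DR (median 1184), and did not pass (log2 fold change -0.02 ± 0.0719 SE, adjusted p = 0.808). The antisense gene *Gm15441* covers 19.4% of its exon length.

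Of 10 tested proteins with a thioredoxin domain 4 were higher in DP, 2 were lower and 4 did not pass, and all folds were small. Over all genes 28.2% were called higher and 27.3% lower, so these counts are near the background. *Txndc5*, a disulfide isomerase of the endoplasmic reticulum, ran from 134 to 174 CPM in DP (median 157) and from 123 to 146 CPM in DR (median 135). It was 1.15-fold higher (log2 fold change 0.20 ± 0.0304 SE, adjusted p = 1.87e-06). *Txnl1*, which binds the proteasome, was 1.12-fold higher (83.5 ± 4.17 CPM in DP and 74.5 ± 4.08 CPM in DR, adjusted p = 1.10e-05). *Txndc9* and *Txndc12* were each 1.05-fold higher (adjusted p = 0.0244 and 0.0291), and *Txndc12* lost its call without DR replicate 7 (adjusted p = 0.0752). *Txnl4b*, a relative of a spliceosome protein, was 1.21-fold lower (14 ± 1.26 CPM in DP and 17 ± 1.41 CPM in DR, adjusted p = 5.59e-06), and *Txndc15* was 1.07-fold lower (adjusted p = 0.0172). *Txndc11*, *Txndc16*, *Txndc17* and *Txnl4a* had adjusted p-values of 0.931, 0.505, 0.0560 and 0.226, and the testis genes *Txndc2* and *Txndc8* were filtered.

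Of the superoxide dismutases, *Sod1*, the copper-zinc enzyme of the cytosol (chromosome 16, 90220754 to 90226329), ran from 115 to 167 CPM in DP (median 129) and from 146 to 211 CPM in DR (median 175). All DP libraries lay below the DR median, and it was 1.31-fold lower (-0.39 ± 0.0499 SE on the log2 scale, adjusted p = 9.69e-08). *Sod2*, the manganese enzyme of mitochondria, ran from 169 to 252 CPM in DP (median 212) and from 168 to 246 CPM in DR (median 198), with no call (adjusted p = 0.430). Of the *Sod2* stretches of 50 bases 21% also occur in other genes.

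Levels of different genes were compared per exon length, as FPKM, which divides the counts by exon length and library total. *Gpx1* (388 FPKM in DP and 343 in DR) and *Txnip* (372 and 378) stood at the top, followed by *Gpx4* (276 and 327), *Mgst1* (259 and 315) and *Gpx3* (149 and 149). In both groups *Gpx1* and *Txnip* differed by less than the SD of *Txnip*. Among transferases *Mgst1* was followed by *Mgst3* (100.5 FPKM in DP and 129 in DR), *Gstz1* (77.8 and 127) and *Gstm1* (67.4 and 93.7), so the falls took in the most abundant transferases. *Slc7a11* was lowest of the tested genes, at 0.0718 FPKM in DP and 0.0492 in DR.

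**Figure D4:**
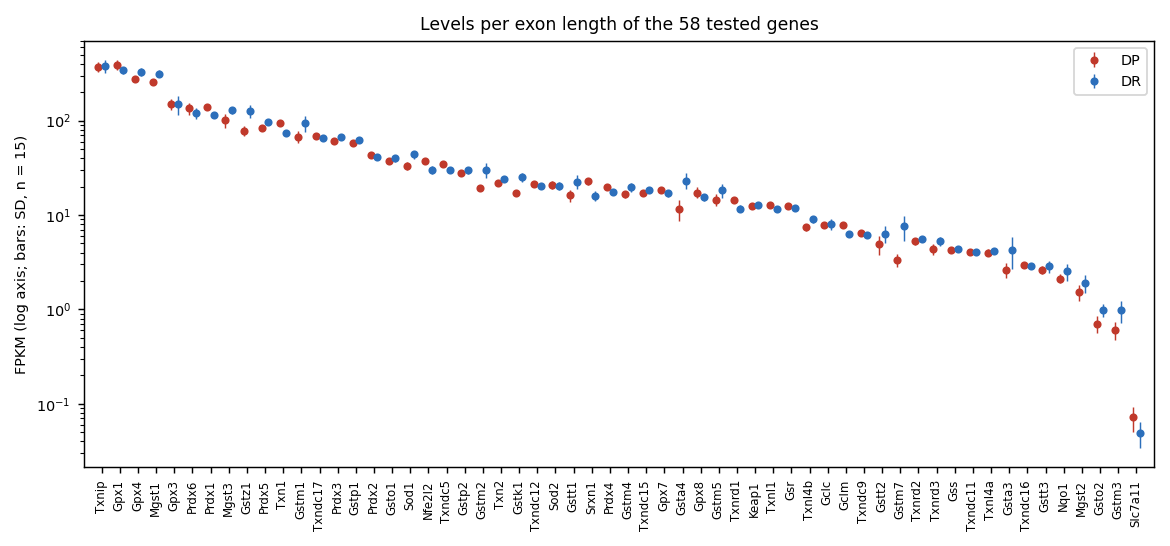
Mean FPKM with SD over 15 libraries (y axis, log scale) of the 58 tested genes in order of their mean level, DP in red and left of DR in blue. Levels run from 388 FPKM (*Gpx1* in DP) to 0.0492 FPKM (*Slc7a11* in DR), and the blue points of *Gsta4*, *Gstm7*, *Gsta3* and *Gstm2* stand clear above the red ones.

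Macrophage and adipocyte marker scores (the mean log2 CPM of the 20 and 18 markers) were set against 8 genes within each group. The macrophage score ran from 7.43 to 7.87 in DP and from 6.07 to 7.28 in DR, and the adipocyte score from 9.29 to 9.84 in DP and from 9.90 to 10.51 in DR, so that neither overlapped. Of 32 relations 8 passed an adjusted p of 0.05 and 13 had an unadjusted p below it (permutation tests with 100000 resamples, two-sided). The share of all genes that relate to these scores was not counted. Whether such relations are particular to the 8 genes was therefore not tested. Within DR, *Srxn1* rose with the macrophage score (r = 0.90, adjusted permutation p = 0.00064, rho = 0.89, adjusted permutation p = 0.00032, n = 15), and r was 0.87 without the 2 libraries farthest from the median score. Within DP it did not pass the adjusted threshold (r = 0.58, permutation p = 0.0231, adjusted 0.0625; rho = 0.54, permutation p = 0.0406, adjusted 0.0928).

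*Prdx1* followed the macrophage score in both groups, with r = 0.74 in DP (adjusted permutation p = 0.0106, rho = 0.61, adjusted 0.0653) and r = 0.80 in DR (adjusted permutation p = 0.004, rho = 0.79, adjusted 0.0109), and r was 0.54 and 0.77 without the 2 farthest libraries. *Txnrd1* did so in DR (r = 0.64, adjusted permutation p = 0.043, rho = 0.75, adjusted 0.0193), but missed the threshold when the markers were averaged as z-scores (r = 0.61, adjusted permutation p = 0.0521). *Mgst1* ran against it in DP (r = -0.63, adjusted permutation p = 0.043, rho = -0.62, adjusted 0.0638) and in DR (r = -0.72, adjusted permutation p = 0.0133, rho = -0.73, adjusted 0.0193), and the relation in DP also missed it with z-scores (r = -0.60, adjusted permutation p = 0.0521). Against the adipocyte score *Srxn1* (r = -0.77, rho = -0.72) and *Prdx1* (r = -0.77, rho = -0.72) passed in DR, each with an adjusted permutation p of 0.00592 for r and 0.0193 for rho. With all DR libraries *Txnrd1* (r = -0.50, adjusted permutation p = 0.109) and *Mgst1* (r = 0.58, adjusted permutation p = 0.0625) did not pass against the adipocyte score. Their r was -0.36 and 0.30 without the 2 farthest libraries. Without DR replicate 7, an omission chosen after seeing the data, *Txnrd1* (r = -0.66, adjusted permutation p = 0.0327) and *Mgst1* (r = 0.75, adjusted permutation p = 0.00968) passed. The relations of *Slc7a11*, *Gclm*, *Gpx3* and *Nqo1* did not pass, with *Nqo1* nearest in DR (macrophage score, r = -0.61, permutation p = 0.0165, adjusted 0.0586; rho = -0.62, permutation p = 0.0151, adjusted 0.0638).

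**Figure D5:**
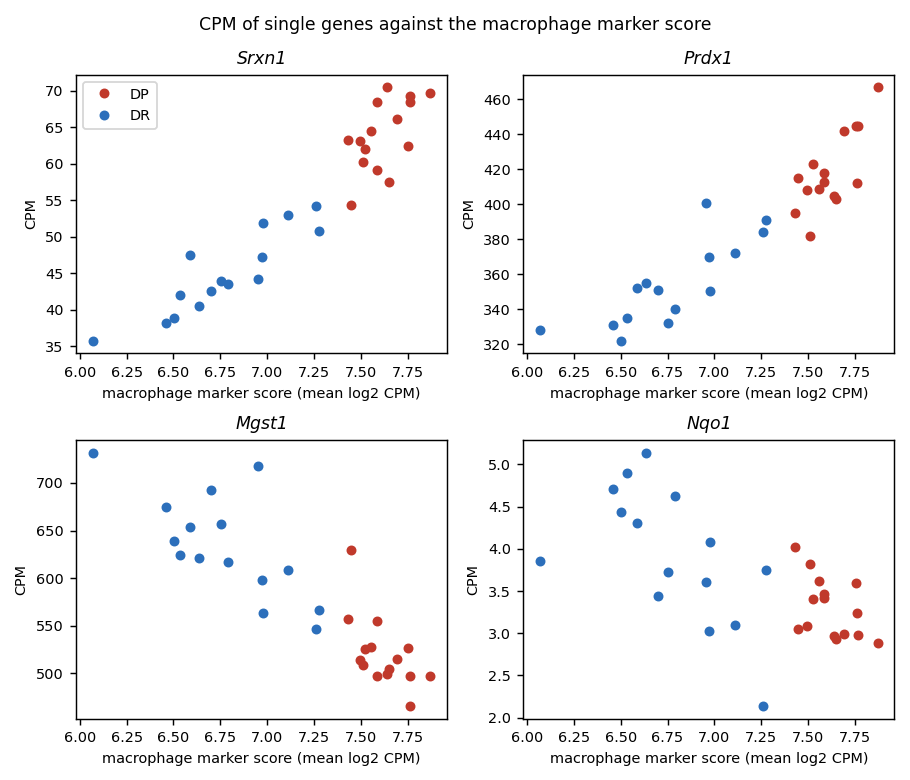
CPM of *Srxn1*, *Prdx1*, *Mgst1* and *Nqo1* (y axes, not from 0) against the macrophage marker score (x axes, mean log2 CPM of 20 markers) in 15 DP (red) and 15 DR (blue) libraries. The DP libraries lie at scores of 7.43 to 7.87 and the DR libraries at 6.07 to 7.28, and within DR *Srxn1* climbs with the score.

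With the macrophage score as a covariate in edgeR, 0 of the 58 genes were called higher and 0 lower (0.0114% and 0.0286% of all genes), and 6 had an unadjusted p below 0.05: *Gclm*, *Gstk1*, *Txndc5*, *Txndc12*, *Mgst3* and *Txn1*. With the adipocyte score 0 were called in either direction (0% of all genes), and *Gclm*, *Gstk1* and *Srxn1* had an unadjusted p below 0.05. Over all genes these fits called 7 and 0. The median size of the log2 fold change over the 58 genes was 0.09 with either score, against 0.20 without. The log2 fold change of *Gclm* was 0.22 with the macrophage and 0.19 with the adipocyte score (0.33 without), that of *Srxn1* 0.10 and 0.17 (0.51 without), and that of *Txn1* 0.14 and 0.12 (0.35 without). Among the falls, *Gstm7* had -0.12 and -0.10 (-1.18 without), *Gsta4* -0.25 and -0.10 (-1.01 without), *Gstz1* -0.10 and -0.07 (-0.71 without), *Gstm2* -0.03 and -0.21 (-0.65 without) and *Gstk1* -0.20 and -0.18 (-0.57 without). Since neither score overlaps between the groups, score and group can hardly be told apart in these fits, and no other tool was run with them.

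Neighbouring pathways, down to the selenoproteins and other thioredoxin-fold or related proteins, were counted in the same fit. Their counts stand beside 28.2% higher and 27.3% lower over all genes tested. Of 13 genes that supply NADPH 1 was higher, 6 were lower and 6 did not pass (median log2 fold change -0.09), with mitochondrial *Idh2* 1.25-fold lower (adjusted p = 2.23e-06) and *Mthfd2*, of mitochondrial one-carbon metabolism, 1.40-fold higher (adjusted p = 7.47e-06). Of 12 tested genes of cysteine and methionine transport and metabolism, breakdown included, 2 were higher, 7 were lower and 3 did not pass (median -0.19). The transporter gene *Slc1a5* was 1.54-fold lower (adjusted p = 7.55e-09). *Cdo1* and *Csad*, which turn cysteine into taurine, averaged 675 ± 85.7 and 89.8 ± 11.9 CPM in DP, against 1068 ± 204 and 141 ± 15.6 CPM in DR (1.58-fold and 1.57-fold lower, adjusted p = 5.50e-08 and 5.78e-10). The 7 lower genes include the liver-rich *Cbs* and *Gnmt*, which reached 21.6 and 31.7 CPM in DR replicate 7, against at most 2.62 and 1.24 CPM in the other DR libraries. Without that library 3 genes were higher and 6 lower: *Cbs* was still called lower (2.92-fold, adjusted p = 1.56e-07), *Gnmt* did not pass (adjusted p = 0.145), and *Ahcy* was called higher (1.17-fold, adjusted p = 2.03e-05).

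Of 17 tested genes of glutathione breakdown, export and glutaredoxins 4 were higher, 7 were lower and 6 did not pass (median -0.08). The peptidases *Anpep* and *Dpep2* were 2.04-fold and 2.34-fold higher (adjusted p = 9.09e-08 and 4.82e-06), cytosolic glutaredoxin *Glrx* was 1.22-fold higher (adjusted p = 2.22e-05), and *Glrx2*, *Glrx3* and *Glrx5* were lower by 1.12-fold to 1.18-fold. 5-oxoprolinase *Oplah*, of the glutathione cycle, was 1.56-fold lower (adjusted p = 3.13e-08). Of 15 other redox genes 2 were higher, 9 were lower and 4 did not pass (median -0.27). Beside catalase and *Sod3* the list holds methionine sulfoxide reductases, sestrins, paraoxonases and others that do not remove peroxide or superoxide directly. Catalase *Cat* averaged 714 ± 63.1 CPM in DP and 918 ± 49.0 CPM in DR (1.29-fold lower, adjusted p = 4.66e-09). Extracellular *Sod3* was 1.38-fold lower (adjusted p = 9.66e-10).

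Of 20 tested selenoproteins and genes of their synthesis outside the 69, 5 were higher, 7 were lower and 8 did not pass (median 0.01), with the plasma selenium carrier *Selenop* 1.36-fold higher (adjusted p = 4.92e-06). Of 17 other tested genes, mostly of thioredoxin-fold proteins, 11 were higher, 3 were lower and 3 did not pass (median 0.23). *Creld1* (lower) and *Creld2* (higher) are in the list without having that fold. The list holds 14 proteins of the secretory pathway (10 higher, 2 lower) and the nucleoredoxin genes *Nxn*, *Nxnl1* and *Nxnl2*. Those that rose include the disulfide isomerases *Pdia3* (1.25-fold higher, adjusted p = 7.23e-08) and *Tmx1* (1.26-fold higher, adjusted p = 1.84e-09).

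Markers of other cells moved beside these genes. In DP, 7 of 13 fibroblast markers were higher and 2 lower (median 0.23), 0 of 12 endothelial markers were higher and 12 lower (median -0.35), 0 of 10 mesothelial markers were higher and 8 lower (median -0.61), and 12 of 12 proliferation markers were higher (median 0.94). Of 11 mast cell and granulocyte markers 7 were higher and 2 lower, of 13 T, B and NK cell markers 1 was higher (*Cd4*, 1.67-fold), of 6 tested red cell markers 0 passed, and of 9 tested ovary, uterus and oviduct markers 2 were higher and 3 lower. Of 4 tested liver and pancreas markers 3 were lower and 1 was higher, and without DR replicate 7 the count of lower ones was 0. The summed level of the liver and pancreas list was 23.6 to 46.5 CPM in DP and 24.4 to 5243 CPM in DR, with *Prss1*, *Amy2b* and *Ins2* at 0 throughout.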

How the data were processed

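RNA from 30 gWAT samples was sequenced, and the authors deposited a gene table of estimated counts, all whole numbers (StringTie 2.1.3b, GRCm38.p6). For the aligner, the annotation release and the use of strand, nothing was stated in the sources used here. Groups came from the disease state in the labels. Replicate numbers are not from the labels: they were given here within each group, in the order of the library numbers. All 30 columns were used, and every pair of libraries differed by more than sampling noise.

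The test was that of edgeR 4.0.16 under R 4.3.3 (TMM factors, filterByExpr with a minimum count of 10 and a minimum total of 15, quasi-likelihood F test, Benjamini-Hochberg over 17482 genes). The SE is the size of the log2 fold change over the square root of F. Scores used log2 CPM with a prior count of 2. Alternatives were DESeq2 1.42.0, limma 3.58.1 (voom with quality weights), 3 other scalings, 3 other filters, a fold of at least 1.5, omission of libraries (DP replicate 4 with DR replicate 7, the least correlated, and DR replicate 7 alone, chosen after seeing the data), and the marker scores as covariates. The edgeR step was tested on simulated data. Exon lengths and positions came from GENCODE M21, and sequences from RefSeq. Counts carry amplification noise.

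Members and gene lists were chosen with earlier results of these data known. Named genes were a fixed set of core members, the 12 largest rises and 12 largest falls with a mean count of at least 50, up to 4 members per role and up to 3 per list with the smallest p. *Cd163*, *Mertk*, *Dpep2*, *Glrx* genes, *Selenop*, *G6pdx*, *Pgd*, *Osgin1*, *Cbr1*, *Taldo1*, *Abcc1*, *Cbs*, *Gnmt* and *Ahcy* were named after their values were seen. So were further members given for completeness of a family.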

Additional observations from a re-analysis of the deposited data

How the results depend on the processing

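The counts of 16 genes higher and 28 lower in DP ran from 11 to 19 and from 25 to 31 over DESeq2, voom, the 3 other scalings, the 3 other filters and the omission of libraries (15 and 29 without DR replicate 7). With either marker score as a covariate they were 0 and 0, and the cause was not tested. At a fold of at least 1.5 they were 0 and 6, by construction. DESeq2 lost the calls of *Prdx6* and *Txndc12* and gained *Txnrd2* and *Gstm6*, which the edgeR filter had removed, voom lost *Gpx8* and gained *Gpx7*, *Gsr*, *Gstt3* and *Txndc17*, and upper quartile factors lost *Gpx8*, *Prdx2*, *Prdx6*, *Txndc12* and *Txndc9* and gained *Gstt3*, *Keap1* and *Txnrd2*. Library totals alone lost *Gsto1*, *Gstp2* and *Txndc15* and gained *Gpx7*, *Gsr* and *Txndc17*.

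Outside the covariate fits, only genes that had not passed changed sign, all near 0 on the log2 scale. *Gpx3* was at 0.00 with DESeq2, with a mean CPM over 1 and with a mean FPKM over 1, at -0.01 with relative log expression factors and at -0.04 with upper quartile factors. *Txndc11* was at 0.00 with DESeq2, with relative log expression factors and without DR replicate 7, and at -0.03 with upper quartile factors, where *Txndc16* was at -0.01. *Gss* and *Txnip* were at 0.01 with library totals only, and *Gclc* was at 0.01 without the least correlated library of each group. With the macrophage score as a covariate the log2 fold changes of the genes that changed sign were 0.09 (*Gpx4*), 0.03 (*Gss*), 0.02 (*Gstm5*), 0.11 (*Gstp1*), 0.12 (*Gstp2*), 0.04 (*Gstt3*), 0.06 (*Keap1*), 0.30 (*Mgst2*), -0.04 (*Nfe2l2*), 0.26 (*Nqo1*), 0.00 (*Txndc11*), -0.02 (*Txndc17*), 0.02 (*Txnrd2*) and 0.01 (*Txnrd3*). With the adipocyte score they were -0.04 (*Gpx3*), 0.03 (*Gpx4*), -0.05 (*Gpx7*), -0.06 (*Gpx8*), 0.06 (*Gss*), 0.00 (*Gsto1*), 0.09 (*Gstp1*), 0.09 (*Gstp2*), 0.08 (*Keap1*), 0.24 (*Mgst2*), 0.14 (*Nqo1*), 0.04 (*Prdx3*), -0.02 (*Txndc11*), -0.01 (*Txndc16*), 0.11 (*Txnrd2*) and 0.14 (*Txnrd3*). The cause of these changes was not tested.

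With markers weighted equally as z-scores, *Txnrd1* in DR (r = 0.61) and *Mgst1* in DP (r = -0.60) missed the threshold against the macrophage score (adjusted permutation p = 0.0521 each), and *Mgst1* in DP passed against the adipocyte score (r = 0.70, adjusted permutation p = 0.017). Without DR replicate 7, *Txnrd1* (r = -0.66, adjusted permutation p = 0.0327) and *Mgst1* (r = 0.75, adjusted permutation p = 0.00968) passed against the adipocyte score in DR. With all libraries neither had passed there. Without that library r of *Gpx3* with the macrophage score in DR was 0.00. Of the neighbouring lists, selenoproteins lower in DP numbered 4 instead of 7 with library totals only, and mesothelial markers lower in DP 5 instead of 8 without the filter. No paired analysis was possible because the labels give each library only its own number and no replicate number shared between groups.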
